A study of Coprinopsis cinerea AmutBmut pab1-1 with 201 samples.

Results

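The genes described here are the 47 of 13617 counted genes of the mushroom Coprinopsis cinerea that were expressed mainly in sclerotia. The genes were chosen by their measured levels: the mean over the 3 sclerotium libraries had to reach 20 CPM (counts scaled to the same library total) and to be at least 2 times the mean in every other group of samples, with 0.5 CPM added to each mean. The co-culture group CTGT was left out of that rule. The selection took 0.345% of all counted genes, and a limit of 200 genes was not reached. Because the sclerotium libraries chose the genes, their excess in sclerotia is given below as a description without a test. Every test compares groups that hold no sclerotium library. The means of those groups, CTGT aside, also entered the rule, as the level to be exceeded. The tests are therefore not independent of the choice of genes, least of all where they use a gene's next highest group.

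Sclerotia are compact, resting bodies of aggregated hyphae with a pigmented rind, in which many fungi survive cold, drought or lack of food and from which they grow out again. In C. cinerea they form on aged mycelium in constant darkness and can arise from hyphal knots, the small hyphal aggregates that develop into mushroom primordia once light is given. Mycelium, oidia (asexual spores), basidiospores (sexual spores), hyphal knots, primordia and sclerotia are therefore alternative states of the same organism.

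The strain was AmutBmut pab1-1, a homokaryon with mutations at both mating-type loci that fruits without a mate, and it was profiled in 67 groups of 3 libraries with a 3′ end tag method (QuantSeq, 75 bp single-end reads). The sclerotia (group Sclero) were harvested after 4 weeks of growth. Their title allows for some mycelium among them and names dark-grown mycelium of 132 h (DM_132h) as their control, and their tissue label is vegetative mycelium. The labels do not say whether the 3 libraries of a group stem from 3 cultures, so the p-values below reflect only the spread between libraries, which may be technical.

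The other groups used below were oidia and basidiospores before and after germination (OIDIA_0h, OIDIA_18h, BS_0h, BS_12h), and mycelium grown in darkness for 12 to 156 h (DM), which at 156 h was separated into aerial (AE) and agar-attached (AM) parts. Light-induced cultures were sampled after 2 h within the light period (ELI2h) or, following 2 h of light, after 24 h of darkness (LI_24h), when hyphal knots (HK) were collected apart from aerial and attached mycelium. Primordia came from a light and dark cycle of 24 h (L_D_24h), with earlier samples at 6, 12 and 18 h. Aerial and attached mycelium were also sampled at 1 h within the light period (ELI1h). Dark samples after that period were taken at 2, 6, 12 and 18 h as well (LI2h, LI6h, LI12h, LI18h). A second route to knots used 1% water agar, sampled from 30 h before the knot stage (a_30) to the knots themselves (HK). A further sample of that route was taken 7.5 h after the knots (HK_plus_7_5). Colonies moved from rich YMG medium to water agar were sampled up to 24 h later (SWAT24h, control DM_60h). Earlier samples of that series were taken at 2, 4, 8 and 16 h (SWAT2h, SWAT4h, SWAT8h, SWAT16h). The stresses were 47 °C for 2 h on cultures of 6 days (HS47, control DM_132h), drought (DR, control DM_84h), hypoxia for 24 h (Hyp, control HypK), 2 mM cobalt chloride on cultures of 7 days with 2 h of light and 22 h of darkness (Cocl, control CoK), 2 mM copper sulphate for 6 h (Cu, control LoKo) and 10% sorbitol for 2 h (Sor, control LoKoLiquide). Further stress groups, used for levels only, were -20 °C for 30 minutes on mycelium of 6 days (min20) and sealed plates kept at 28 °C in the dark for 6 days (CO2), both with DM_132h as control. They also included 4 °C for 4 h (Cold, control DM_84h), 200 mM calcium for 24 h (Calci, control LoKo) and 1 mM hydrogen peroxide for 3 h (H2O2, control LoKoLiquide). Also used for levels only were voriconazole for 48 h (Vor, control LoKo) and mycelium cut with a knife and kept for 3 h (Scratchy, control DM_84h). Acidic or alkaline stress (pH_4, pH_9) and 1% congo red (CR) lasted 3 h each, with LoKoLiquide as control. In CTGT, Coprinopsis and Trichoderma had overgrown each other for 60 h (control DM_108h). In CTMP, used for levels only, they were just meeting (control DM_60h).

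The sclerotium libraries held 5348930 to 6344867 counts, against 213736 to 26101402 (median 9984538) over all 201 libraries, where the 3 shallowest were those of CTGT. Each sclerotium library correlated best with the other 2 of its group (mean r of log2 CPM from 0.963 to 0.968 over 12492 genes), next with CoK (0.892 to 0.896), and with DM_132h at 0.834 to 0.839. The 606 genes that the same rule picks for fresh oidia summed to 9410 to 9752 CPM in sclerotia, 9529 to 10103 in DM_132h and 348728 to 418325 in the oidia themselves. The 192 basidiospore genes summed to 5347 to 7660 CPM in sclerotia, 4130 to 5003 in DM_132h and 282867 to 353879 in basidiospores, and the 36 primordium genes summed to 597 to 742, 1011 to 1842 and 12318 to 13706 CPM in sclerotia, DM_132h and L_D_24h. The rule picked no gene for DM_12h or DM_132h and 2 genes for the light-induced knots, so the share of mycelium in the sclerotium libraries was not measured.

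The 47 genes made up 13.3, 13.5 and 16.3% of all counts in the sclerotium libraries. In the 195 libraries outside Sclero and CTGT they made up 0.0380 to 1.56% (median 0.542%). Most of the mass lay in few genes: the 8 most abundant members alone held 12.3, 12.4 and 15.2% of the counts. The median member had a sclerotium mean of 176 CPM and a ratio of 3.35 to its second group, the group with the next highest mean. At a ratio of 3 or more there were 28 members, at 5 or more 12, at 10 or more 5, and at 50 or more 4. For 42 members the lowest sclerotium library lay above every single library of the other groups, CTGT aside. The exceptions were CopciAB_496344, CopciAB_422304, CopciAB_84247, CopciAB_489010 and CopciAB_1002757. The rule, which used the same values, favours such a gap, and its share over all genes was not computed. In no other group did 11 of the members reach 20 CPM. All 47 were at least 4-fold above DM_132h, the labelled control, with a median log2 ratio of 4.38 against -0.35 over all genes at 1 CPM or more in either group. The rule had already required each member to be at least 2-fold above DM_132h, so the selection itself sets members apart from all genes here. The share of all genes at 4-fold was not computed. In such bulk samples, fewer cells of a type and less RNA per cell cannot be told apart.

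**Figure D1:**
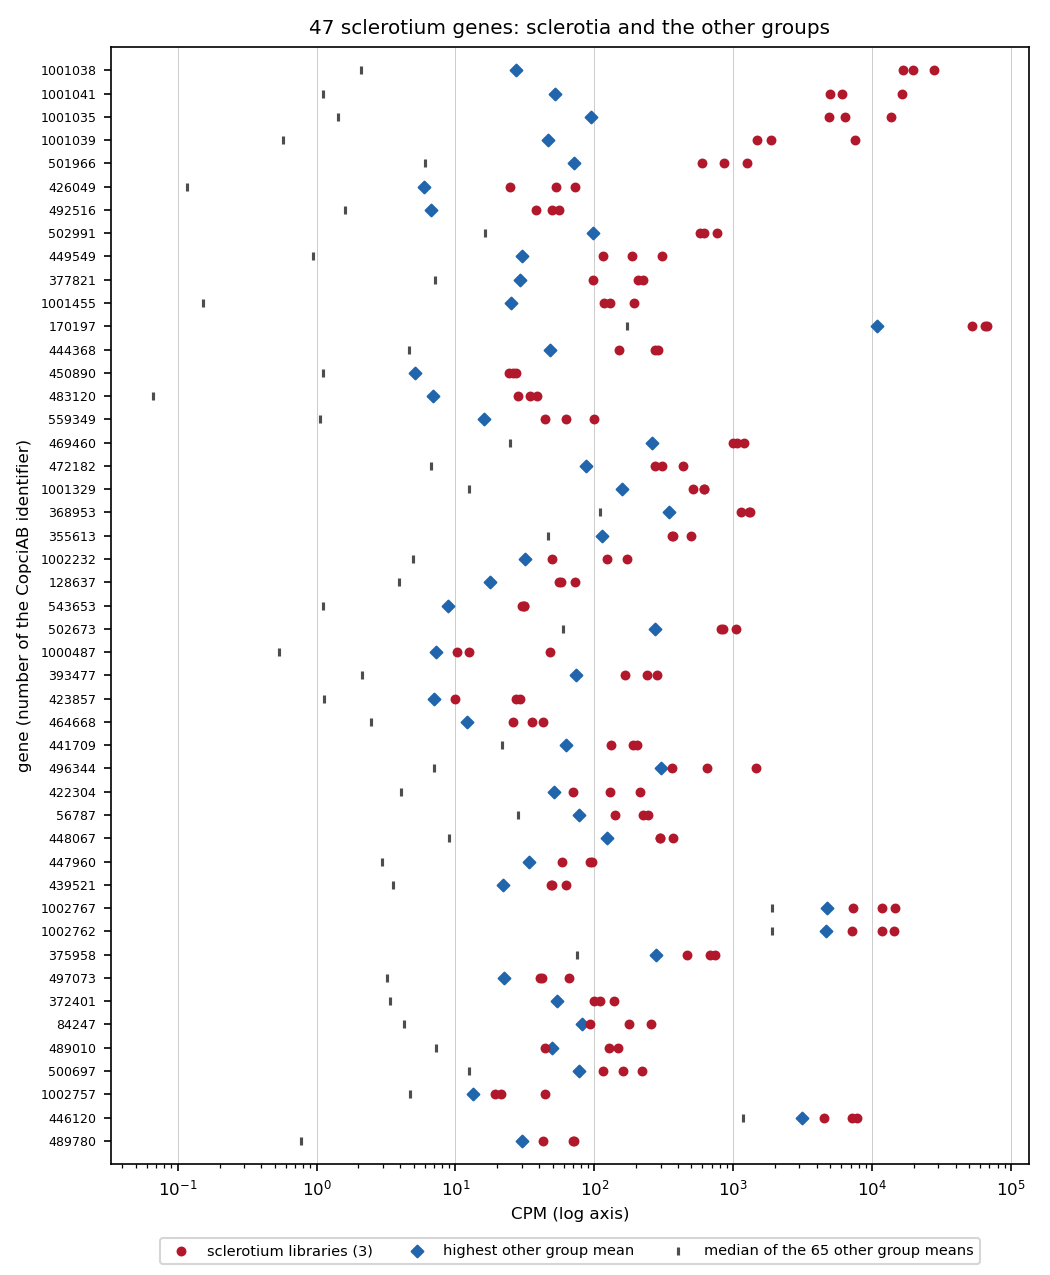
CPM of the 47 genes (log axis), ordered by their ratio to the second group with the largest ratio at the top; circles are the 3 sclerotium libraries, diamonds the highest mean of another group, and ticks the median of the 65 other group means. The top 4 rows, with ratios from 77.6 to 779, stand far clear of every other group, while ratios run down to 2.02 at the bottom.

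The 4 largest ratios belonged to 4 single-exon genes that lie within 89.2 kb of each other on scaffold 4 (positions 3186806 to 3276030 in the authors' CopciAB V2 annotation). CopciAB_1001038, with a coding sequence of 678 bp, had 16650.1, 19815 and 28088 CPM in the sclerotium libraries, and its second group was the 47 °C heat shock at 27.1 CPM, a ratio of 779. CopciAB_1001041 (1158 bp) had 5001, 6041 and 16508 CPM, and its second group was again the heat shock, at 52.3 CPM. All 3 sclerotium libraries of both genes lay far above every other library, and the third was the highest.

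CopciAB_1001035 (1017 bp) had 4922, 6334 and 13692 CPM in sclerotia, against 95.0 CPM in its second group, mycelium kept at -20 °C for 30 minutes (min20). The smallest of the 4, CopciAB_1001039 (468 bp), had 1479.8, 1874 and 7477 CPM against 46.0 CPM after heat shock. As with the first pair, the groups did not overlap and the third sclerotium library was the highest. CopciAB_1001038 and CopciAB_1001039 are direct neighbours on the plus strand, 3007 bp apart, while the other 2 are on the minus strand with 13 and 17 counted genes in between. The 30 other genes of the stretch stayed low in sclerotia, with a median of 8.35 CPM and a maximum of 99.0 CPM. In sclerotia, 4 of them were at least 2-fold above DM_132h while 4 were at least 2-fold below it. Some were high in other groups: CopciAB_423239, the gene at 99.0 CPM, averaged 41237 CPM after heat shock, and CopciAB_367246 averaged 706 CPM in LoKoLiquide. Of those 30 genes, 3 also have a single exon.

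**Figure D2:**
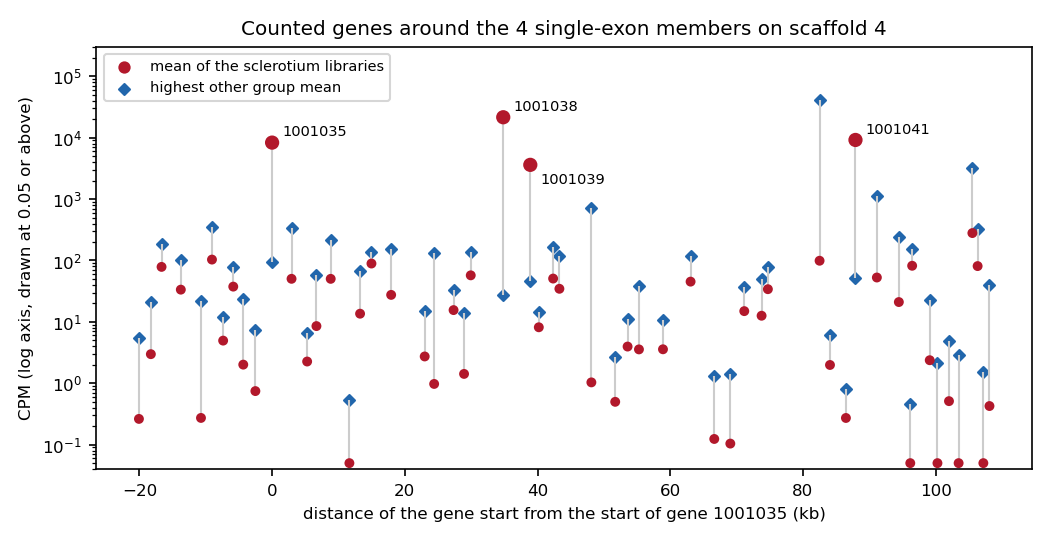
Mean CPM in sclerotia (circles, large for the 4 members) and the highest mean of another group (diamonds) for each counted gene, by the distance of its start from that of CopciAB_1001035 in kb, with CPM on a log axis. In sclerotia the 4 members stand at 3610 to 21518 CPM, while their neighbours within the stretch stay below 100 CPM. In other groups some neighbours have higher means, up to 41237 CPM for CopciAB_423239 after heat shock.

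The 4 genes summed to under 1 CPM in 81 of the 198 libraries outside Sclero. Where they were detected, their proportions fell into different patterns. In sclerotia, CopciAB_1001038 gave 50.8% of the counts of the 4, CopciAB_1001041 21.4%, CopciAB_1001035 19.5% and CopciAB_1001039 8.34%. In attached mycelium 24 h after light, 83.0% of the 4 genes' counts came from CopciAB_1001035 and 1.87% from CopciAB_1001038.

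CopciAB_1001035 also led in CO2-exposed plates (65.9%), in the -20 °C group (68.7%), in CoK (68.8%) and in attached dark mycelium of 156 h (73.8%). Heat shock had another pattern, with 37.3% from CopciAB_1001041, 32.4% from CopciAB_1001039 and 10.5% from CopciAB_1001035. In other groups the proportions were those of sclerotia at a far lower level: in aerial mycelium after 2 h of light, for example, CopciAB_1001038 gave 54.5% and CopciAB_1001041 21.3%, at a mean of 0.0191% of the sclerotium level. The mean level in SWAT2h, 2 h after the move to water agar, was 0.0611%, and 0.0155% without SWAT2h replicate 1.

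Of the 38 groups other than Sclero with at least 100 counts over the 4 genes, 25 had all 4 within 2-fold of each other when each was set relative to its sclerotium mean. In 10 of the 38 the 4 genes were over 5-fold apart on that scale. The 25 include ELI2hAM, ELI2hAE, Cu and CTGT, where the mean level was 0.0209, 0.0191, 0.0233 and 0.949% of that in sclerotia. In CTGT it was 0.308% without CTGT replicate 1. Whether the 4 genes were transcribed in those samples at such levels was not tested, and their calls are given below with their CPM.

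**Figure D3:**
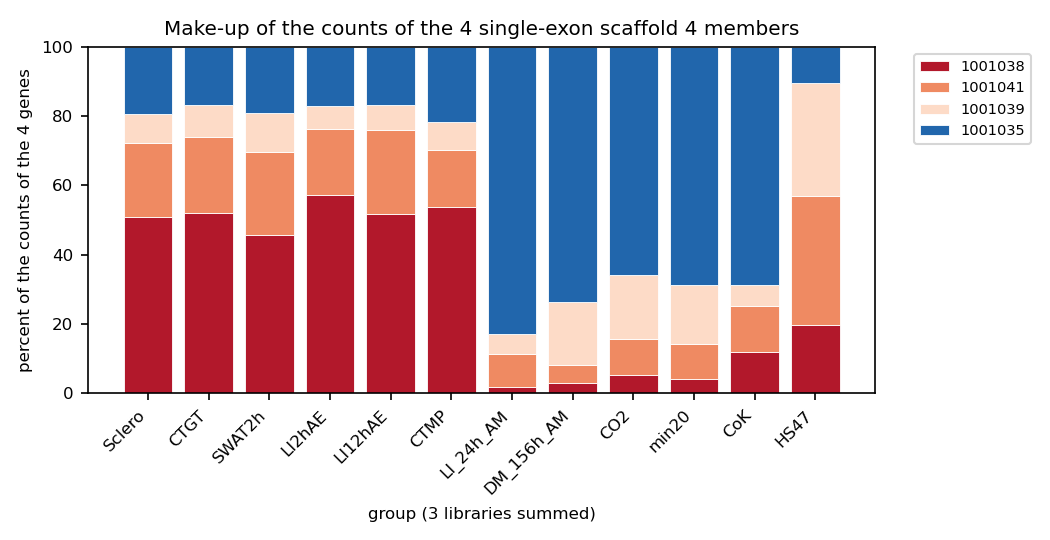
Share of each of the 4 single-exon scaffold 4 genes in their summed counts, for Sclero and 11 other groups (3 libraries summed in each). The first 6 bars have CopciAB_1001038 at 45.6% or more, whereas CopciAB_1001035 takes 65.9% or more in the next 5.

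The most abundant member was CopciAB_170197, a gene of 2 exons and 110 codons that lies 65 counted genes beyond CopciAB_1001041 on the same scaffold. It had 64524, 67438 and 52513 CPM in the sclerotium libraries, and 10778 CPM in its second group, cobalt chloride. In the comparison of cobalt chloride with its control CoK, described below, this gene was not called. The 3 sclerotium libraries agreed closely, with a coefficient of variation of 12.9%. Outside sclerotia this gene was widely expressed, with a median of 171 CPM over the other groups and 59 of them at 20 CPM or more.

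CopciAB_170197 differed with drought and light in the other groups. Drought libraries had 874, 1823 and 1581 CPM, against 112, 98.7 and 129 CPM in DM_84h (log2 fold change 3.76 ± 0.64 SE, adjusted p = 1.61e-05 by edgeR's quasi-likelihood test with Benjamini-Hochberg adjustment over all genes tested, as for every adjusted p below). Attached mycelium 24 h after light had 1496, 1189.6 and 1448 CPM, against 221, 282 and 428 CPM in attached dark mycelium (log2 2.32 ± 0.63, adjusted p = 0.00506). Within the light period the direction was the opposite: after 2 h of light it had 103, 76.0 and 78.1 CPM, against the same dark libraries (log2 -2.01 ± 0.63, adjusted p = 0.0118). That call was lost without DM_156h_AM replicate 3 (log2 -1.69, adjusted p = 0.0514). Knots 24 h after light had 122, 128 and 186 CPM, a log2 difference of -3.42 ± 0.67 from the attached mycelium of that time (adjusted p = 0.000122). None of these pairs of groups overlapped.

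CopciAB_446120, a gene of 3 exons and 148 codons on scaffold 8, had 7224, 7737 and 4489 CPM in sclerotia and only 2.08 times less in its second group, water agar 7.5 h before knots. It was abundant in most groups, with a median of 1180 CPM. It was called higher in 7 of the 20 comparisons described below (germinated oidia and basidiospores, 132 h in the dark, 24 h on water agar, water agar knots, heat shock and drought) and lower in 2 (primordia and copper). The copper call was lost without Cu replicate 2 or 3 (log2 -1.09 and -1.06, adjusted p = 0.0583 and 0.0705). After 24 h on water agar it had 3375, 2980.0 and 2985 CPM, against 571, 657 and 528 CPM in DM_60h (log2 2.51 ± 0.17, adjusted p = 2.3e-16). Over the dark time course its mean went up at every sampled step: 304 CPM (12 h), 451 CPM (36 h), 585 CPM (60 h), 739 CPM (84 h), 846 CPM (108 h) and 870 CPM (132 h).

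The remaining abundant members were 2 gene models on scaffold 16, CopciAB_1002762 and CopciAB_1002767, whose starts are 13852 bp apart and which cannot be told apart by these counts. CopciAB_1002762 had 11709, 7155 and 14391 CPM in sclerotia, and the ratio of one to the other stayed between 0.949 and 1.16 in all libraries. Of their nonzero counts, 98.0 and 98.5% were not whole numbers. Both varied across libraries with CopciAB_1002784, a single-exon model of 51 codons on scaffold 20 (Pearson r of log2 CPM 0.95 over 195 libraries, which share the same depth differences). CopciAB_1002784 is no member, since its sclerotium values of 49839.8, 27215 and 64779.8 CPM were 1.59 times its second group. Another member of scaffold 16, CopciAB_1002757, had 19.1, 21.3 and 44.4 CPM, 94.0% of its nonzero counts not being whole. These 3 models count below as separate members although they may share reads.

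Among the remaining large ratios was CopciAB_501966 on scaffold 5 (10 exons, 454 codons), with 591, 856 and 1264 CPM in sclerotia and a second group mean of 70.8 CPM in calcium-treated mycelium (Calci). CopciAB_502991 on scaffold 3 (614 codons) had 575, 612 and 768 CPM, and its second group was the primordium of 24 h at 97.0 CPM. At lower levels, CopciAB_426049 had 72.9, 53.3 and 24.7 CPM against 5.96 CPM after heat shock, and CopciAB_492516 had 37.8, 55.6 and 49.95 CPM against 6.64 CPM in primordia of 18 h. None of these 4 genes overlapped with any other group in single libraries outside CTGT.

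On scaffold 6, CopciAB_449549 (14 exons) and CopciAB_1001455 (3 exons, 63 codons) are 673 bp apart on opposite strands with 1 counted gene in between. CopciAB_449549 had 115.5, 186 and 307 CPM in sclerotia and CopciAB_1001455 had 118, 129 and 194 CPM. Outside sclerotia the pair parted: CopciAB_449549 was next highest in primordia of 24 h (29.9 CPM), and CopciAB_1001455 in attached mycelium 24 h after light (25.2 CPM). CopciAB_472182, another member, starts 10 counted genes before them. CopciAB_1001455 and CopciAB_472182 overlap a gene on the other strand, and whether the counting used strand is not given in the sources used here. CopciAB_377821 on scaffold 2, with 205, 224 and 98.0 CPM against 29.2 CPM in attached mycelium 24 h after light, lies between 2 further members, CopciAB_559349 and CopciAB_464668, within positions 30719 to 94162.

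Counting these places, the 47 members were spread over 14 scaffolds. Scaffold 4 held 8 of the 47 (17.0%), against 10.7% of all counted genes. Members had a median of 4 exons and 1023 bp of coding sequence, against 5 exons and 1113 bp over all genes, and a median 3′ UTR of 167 bp against 126 bp. Single-exon genes made up 10.6% of members and 7.95% of all genes, and genes of at most 110 codons made up 10.6 and 10.4%. The single-exon members stood at the top, with 4 of the 5 at the largest ratios. The files pair no gene with a product, so the roles of these genes are not given here.

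Replicate spread in sclerotia was moderate for most members, with a median coefficient of variation of 26.9%. It was over 50% for 8 members: CopciAB_1001041, CopciAB_1001035, CopciAB_1001039, CopciAB_1002232, CopciAB_1000487, CopciAB_496344, CopciAB_422304 and CopciAB_489010. CopciAB_1000487 had 48.3 CPM in the third library and 10.3 and 12.6 CPM in the other two, so its place rests on that library. Other members also depended on 1 library: the rule kept 41 of the 47 without the third library, 41 without the second and 43 without the first. The third library was the highest for 21 members, the second for 15 and the first for 11.

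Just inside the ratio threshold were CopciAB_489780 (2.02), CopciAB_446120 (2.08) and CopciAB_1002757 (2.09), and just outside it CopciAB_130441 (1.99), CopciAB_368567 (1.94) and CopciAB_451005 (1.94). The lowest members by level were CopciAB_423857 (22.1 CPM), CopciAB_1000487 (23.7 CPM) and CopciAB_450890 (25.7 CPM). A further 8 genes passed the ratio below 20 CPM, the nearest being 3 models with identical values of 17.3 CPM, CopciAB_384611, CopciAB_1001791 and CopciAB_1001807.

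Outside sclerotia the members did not share a single second site. Their second groups were 21 different ones: a stress group for 16 members, mycelium 12 to 24 h after light for 13, hyphal knots or primordia for 9, resting spores for 5, starved or pre-knot mycelium on water agar for 3, and aerial dark mycelium for 1. The single groups named most often were attached mycelium 24 h after light (6 members), then the aerial mycelium of that time, fresh oidia and heat shock (4 members each).

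**Figure D4:**
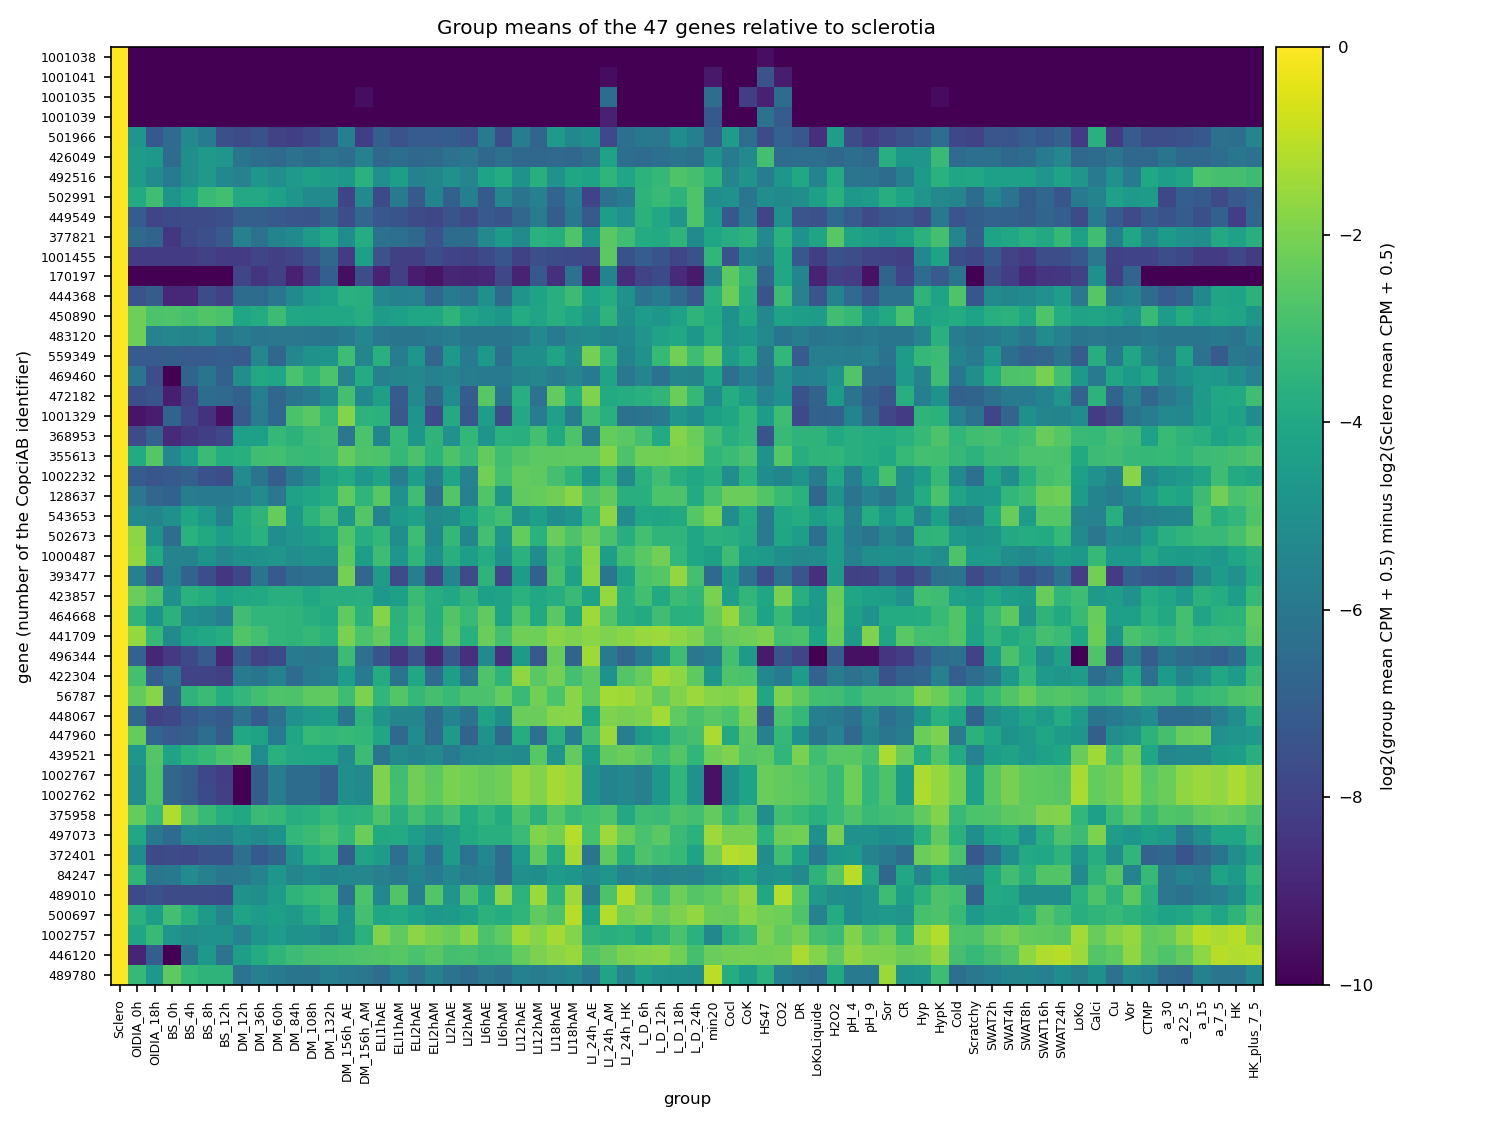
Group means of the 47 genes in 66 groups as the log2 difference from the sclerotium mean (0.5 CPM added, colour limited at -10), with Sclero as the first column and genes ordered by ratio. The 4 scaffold 4 genes at the top are dark nearly throughout, while lower rows brighten in different groups, among them mycelium after light, primordia and several stresses.

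The members' responses were then tested in 20 comparisons among the other groups. A gene was called when its adjusted p was under 0.05 and its change at least 2-fold. Several comparisons share a control group (DM_156h_AM, DM_156h_AE, DM_132h, LI_24h_AM, LI_24h_AE or LI_24h_HK), so they are not independent of each other, and each is given with its own values.

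Spore germination changed members in both directions. The share called lower in oidia, 50% of the members tested, was above that over all genes. The other shares were near or below those over all genes. In oidia at 18 h, 32 members could be tested: 8 were higher and 16 lower than in fresh oidia, where 26.6% of all genes tested were higher and 27.4% lower, and the members' median log2 change was -0.95 against 0.02 over all genes. CopciAB_447960 had 0.442, 0 and 0.396 CPM in oidia at 18 h, against 9.61, 21.1 and 15.9 CPM in fresh oidia (log2 -5.49 ± 0.59, adjusted p = 1.06e-06). CopciAB_483120, whose second group was fresh oidia, had 0.664, 0 and 0 CPM, against 6.17, 8.33 and 6.34 CPM. The groups did not overlap for either gene. Without the 7 members on scaffold 16 and in the scaffold 4 stretch, a count added after the data were seen, 5 were higher and 16 lower.

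In basidiospores at 12 h, 7 of 28 members tested were higher and 9 lower than at 0 h, against 36.6 and 31.2% of all genes. The member median was -0.25 against 0.18 over all genes. CopciAB_446120 had 69.2, 66.8 and 126 CPM at 12 h, against 1.22, 1.51 and 2.03 CPM at 0 h (log2 5.09 ± 0.44, adjusted p = 1e-07). CopciAB_393477 went the other way, with 0, 0.186 and 0.344 CPM against 4.47, 3.65 and 4.67 CPM (log2 -5.35 ± 0.52, adjusted p = 1.51e-07).

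In dark-grown mycelium, age and starvation were compared. At 132 h, 25 of the 47 were higher and 2 lower than at 12 h, against 9.4 and 6.95% of all genes, with a median log2 change of 1.42 for members and 0.00 for all genes. CopciAB_1001329 had 44.1, 37.0 and 91.0 CPM at 132 h, against 3.28, 4.46 and 2.66 CPM at 12 h (log2 4.32 ± 0.60, adjusted p = 5.67e-07). CopciAB_559349 had 1.75, 2.92 and 1.18 CPM at 132 h and no count in any library at 12 h. The groups of both genes stood apart. Of the 2 members called lower, CopciAB_502991 had 16.1, 20.6 and 14.6 CPM at 132 h, against 42.4, 43.3 and 39.3 CPM at 12 h (log2 -1.02). It fell short of 2-fold without DM_12h replicate 2, DM_132h replicate 1 or DM_132h replicate 3 (log2 -0.92 to -0.98). The other, CopciAB_439521 (log2 -1.37), lost its call without DM_12h replicate 2, DM_132h replicate 1 or DM_132h replicate 2 (log2 -0.88 to -1.14, adjusted p 0.0933 to 0.181), and its log2 change was -2.31 without DM_132h replicate 3. Of the 27 calls in this comparison, 7 had both group means under 5 CPM, and without DM_132h replicate 3 there were 18 calls.

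After 24 h on water agar, 27 members were higher and 1 lower than in DM_60h, against 15.3 and 10.6% of all genes. The median log2 change was 1.56 for members and 0.01 for all genes. CopciAB_1002232 had 14.3, 16.2 and 15.8 CPM on water agar, against 0.174, 0.385 and 0.720 CPM (log2 5.24 ± 0.57, adjusted p = 1.98e-10). The single member that fell was CopciAB_502991, with 2.47, 4.09 and 4.15 CPM against 32.3, 35.8 and 31.1 CPM (log2 -3.09 ± 0.32, adjusted p = 6.45e-11). CopciAB_1001038 was called higher at 3.74, 3.35 and 3.70 CPM against 0.0869, 0 and 0.0900 CPM, a level of 0.0194% of the sclerotium mean averaged over the 4 scaffold 4 genes. Leaving out the 7 members of the scaffold 4 stretch and of scaffold 16 gave 21 higher and 1 lower of 40. Across the comparison, 9 of the 28 calls had both means under 5 CPM.

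At 156 h in the dark, aerial and attached mycelium differed in 27 members, 9 higher and 18 lower in aerial mycelium, against 7.42 and 10.2% of all genes (member median -0.50, all genes -0.01). CopciAB_393477 had 66.0, 43.6 and 49.5 CPM in aerial mycelium, against 2.53, 1.57 and 1.02 CPM in attached mycelium (log2 4.83 ± 0.66, adjusted p = 1.57e-07). CopciAB_496344 followed it with 118, 49.4 and 109 CPM against 9.49, 15.1 and 6.23 CPM. On the attached side, CopciAB_489010 had 1.15, 0.803 and 0.730 CPM in aerial mycelium, against 15.6, 12.3 and 16.1 CPM in attached mycelium (log2 -4.15 ± 0.48, adjusted p = 2.77e-09). These 3 genes separated the parts completely in both directions.

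The next comparisons set the light period against the dark. After 2 h of light in attached mycelium, 21 members were lower and 4 higher than before light, against 12.5 and 7.89% of all genes (member median -1.71, all genes -0.04). CopciAB_1001329 had 2.58, 2.88 and 1.70 CPM in light, against 75.6, 55.0 and 21.4 CPM in the dark (log2 -4.51 ± 0.60, adjusted p = 1.25e-07). CopciAB_377821 had 0.607, 0.151 and 0.756 CPM, against 13.8, 13.4 and 8.68 CPM (log2 -4.71 ± 0.68, adjusted p = 4.02e-07). All 4 members called higher were among the 7 of the scaffold 4 stretch and of scaffold 16. One of them, CopciAB_1001038, stood at 4.32, 4.39 and 3.40 CPM against 0.813, 0.240 and 0.0843 CPM, with the sclerotium proportions described above. It lost its call in 4 of 6 fits that left out 1 library (log2 2.80 to 3.21, adjusted p 0.0520 to 0.102, without DM_156h_AM replicate 2 or 3 or ELI2hAM replicate 1 or 2).

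In aerial mycelium, 10 members were lower and 7 higher after 2 h of light, against 8.62 and 8.2% of all genes (member median -0.25, all genes 0.03). CopciAB_496344 had 4.66, 5.00 and 2.87 CPM in light, against 118, 49.4 and 109 CPM in the dark (log2 -4.54 ± 0.83, adjusted p = 6.11e-05). CopciAB_1001329 fell here too, with 13.3, 31.0 and 16.9 CPM against 172, 188 and 118 CPM. The dark and light libraries did not overlap for either gene. Without the 7 members of the scaffold 4 stretch and of scaffold 16, 10 were lower and 2 higher of 40. The response to 2 h of light differed between attached and aerial mycelium for 9 of 47 members in a test of that difference (edgeR interaction term), against 5.1% of all genes.

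In attached mycelium 24 h after light, 20 of the 47 members passed the test as higher and 0 as lower than in attached dark mycelium, against 7.42 and 10.3% of all genes (member median 1.12, all genes 0.03). The unadjusted p was under 0.05 for 29 members in either direction, whatever the size of the change. The share over all genes at that limit was not computed. CopciAB_1001035 had 87.3, 146 and 46.9 CPM 24 h after light, against 20.2, 9.52 and 0 CPM in the dark (log2 3.46 ± 0.83, adjusted p = 0.00155). CopciAB_449549 had 9.63, 15.9 and 2.25 CPM, against 1.90, 1.52 and 1.01 CPM (log2 2.86 ± 0.65, adjusted p = 0.000707). No dark library reached a lighted one for either gene.

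The aerial mycelium of the same time had 2 members higher and 0 lower, against 1.09 and 0.271% of all genes. The member median was 0.48, and that of all genes 0.03. CopciAB_448067 had 20.6, 22.6 and 13.8 CPM 24 h after light, against 4.12, 3.37 and 4.86 CPM in the dark (log2 2.17 ± 0.43, adjusted p = 0.00209). The other was CopciAB_422304, with 31.8, 27.9 and 14.2 CPM against 6.42, 6.79 and 4.38 CPM. It lost its call without LI_24h_AE replicate 1 or without any 1 of the 3 dark libraries (log2 1.76 to 2.16, adjusted p 0.0824 to 0.117), which left 1 member called. With the replicate number as a block and these 2 groups alone in the fit, 5 members were called, and 4 in the same fit without the block. The response to light at 24 h differed between attached and aerial mycelium for 4 of 47 members in the same kind of test. This was a share near the 8.24% of all genes.

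In hyphal knots of the same age, 23 members were lower and 4 higher than in attached mycelium, against 8.33 and 9.03% of all genes (member median -1.12, all genes 0.04). CopciAB_1001035 had 0.160, 0 and 0.246 CPM in knots, against the 87.3, 146 and 46.9 CPM of attached mycelium given above (log2 -9.52 ± 1.23, adjusted p = 1.09e-07). CopciAB_1001041 had no count in any knot library, against 7.83, 20.5 and 3.78 CPM in attached mycelium. Of the members higher in knots, CopciAB_422304 had 17.6, 22.8 and 22.5 CPM against 4.99, 4.99 and 2.09 CPM (log2 2.17 ± 0.50, adjusted p = 0.000986).

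Set against aerial mycelium, knots had 10 members higher and 9 lower, against 9.36 and 8.18% of all genes. The median was -0.16 for members and -0.03 for all genes. CopciAB_489010 had 32.5, 65.5 and 51.6 CPM in knots, against 0.872, 1.39 and 1.97 CPM in aerial mycelium (log2 5.30 ± 0.48, adjusted p = 7e-12). CopciAB_368953 had 242, 208 and 190 CPM against 15.4, 30.2 and 21.1 CPM (log2 3.41 ± 0.32, adjusted p = 1.24e-11). The reverse held for CopciAB_496344, with 9.02, 5.40 and 7.45 CPM in knots against 238, 270 and 399 CPM in aerial mycelium (log2 -5.22 ± 0.83, adjusted p = 4.28e-06).

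In primordia, 7 members were higher and 8 lower than in knots, against 14.8 and 17.3% of all genes, a share near that of genes in general. Their median log2 change was 0.09, against 0.04 over all genes. CopciAB_502991 had 77.0, 112 and 102 CPM in primordia, against 9.38, 17.8 and 4.58 CPM in knots (log2 2.88 ± 0.33, adjusted p = 8.33e-10). CopciAB_444368 had 1.10, 0.661 and 1.36 CPM against 9.36, 8.68 and 4.94 CPM (log2 -3.16 ± 0.55, adjusted p = 6.26e-06). Both separated primordia from knots without overlap.

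On the water agar route, the knots had 11 of 43 members tested higher and 1 lower than 30 h before, against 5.94 and 4.18% of all genes (member median 0.73, all genes 0.04). CopciAB_444368 had 10.9, 17.1 and 9.12 CPM in these knots, against 1.18, 0.924 and 1.58 CPM before (log2 3.32 ± 0.41, adjusted p = 4.18e-06). CopciAB_446120 had 2429, 2981 and 2996 CPM against 854, 959.5 and 1068 CPM (log2 1.56 ± 0.18, adjusted p = 2.25e-06). CopciAB_447960 was the member that fell, with 1.88, 2.05 and 3.83 CPM against 13.96, 5.23 and 11.6 CPM.

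Heat shock changed members in both directions, at shares near those over all genes: 14 were higher and 15 lower than in DM_132h, against 26.7 and 28.9% of all genes, with medians of 0.01 for members and -0.08 for all genes. CopciAB_1001038 had 18.6, 16.6 and 46.1 CPM after heat shock, against 0.167, 0.548 and 0.816 CPM (log2 6.14 ± 0.87, adjusted p = 1.14e-07). CopciAB_1001039 had 45.2, 42.0 and 50.9 CPM against 0.250, 0.0913 and 2.72 CPM (log2 5.91 ± 0.86, adjusted p = 2.64e-07). These values kept proportions unlike those of sclerotia, as given above. CopciAB_368953 fell to 7.55, 6.05 and 7.18 CPM after heat shock, against 149, 125 and 178 CPM (log2 -4.02 ± 0.22, adjusted p = 2.02e-20).

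Under drought, 12 members were higher and 6 lower than in DM_84h, against 9.65 and 7.55% of all genes (member median 0.57, all genes 0.03). Besides CopciAB_170197 and the scaffold 16 models, CopciAB_446120 was higher, with 2327, 2265 and 3386 CPM against 743, 789.6 and 685 CPM (log2 1.96 ± 0.17, adjusted p = 1.1e-11). CopciAB_1001329 fell to 2.88, 1.83 and 1.78 CPM under drought, against 116, 79.9 and 42.9 CPM (log2 -5.09 ± 0.63, adjusted p = 1.2e-07). CopciAB_469460, at 23.4, 21.2 and 21.7 CPM against 159, 208 and 76.9 CPM, fell as well (log2 -2.64 ± 0.54, adjusted p = 0.000181).

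Hypoxia called 1 of 42 members lower, CopciAB_469460, and 0 higher, against 0.536% of all genes lower and 0.585% higher. The unadjusted p was under 0.05 for 10 members, and the share over all genes at that limit was not computed. CopciAB_469460 had 16.4, 21.8 and 30.8 CPM in hypoxia, against 137, 138 and 102 CPM in HypK (log2 -2.27 ± 0.27, adjusted p = 0.00314), without overlap. DESeq2 called 2 members lower and 0 higher here, and leaving out HypK replicate 1 also gave 2 calls. The median was -0.42 for members and -0.00 for all genes.

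With cobalt chloride, 7 of 45 members were higher and 3 lower than in CoK, against 2.93 and 2.99% of all genes (member median -0.23, all genes -0.01). CopciAB_501966 had 34.4, 36.1 and 46.4 CPM with cobalt, against 10.2, 9.69 and 11.2 CPM (log2 2.03 ± 0.17, adjusted p = 9.19e-05), with no overlap. Without Cocl replicate 3 there were 5 calls in all, 5 higher and 0 lower.

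With copper, 7 of 41 members were higher and 4 lower than in LoKo, against 5.04 and 3.22% of all genes (member median -0.16, all genes -0.02). CopciAB_1001329 had 1.68, 3.21 and 2.03 CPM with copper, against 18.1, 15.1 and 15.2 CPM (log2 -2.87 ± 0.53, adjusted p = 0.00403), and the groups stood apart. Of the 11 calls, 5 had both means under 5 CPM, among them CopciAB_1001035 at 1.74, 3.07 and 3.56 CPM against 0, 0 and 0.346 CPM, which lost its call without LoKo replicate 2 (log2 4.49, adjusted p = 0.0591). CopciAB_1001041, also of the scaffold 4 stretch, was called higher at 1.44, 2.27 and 1.30 CPM against 0, 0 and 0 CPM. It lost its call without LoKo replicate 1 or 2 or Cu replicate 1 or 2 (adjusted p 0.0573 to 0.0755). CopciAB_1001038 was called higher at 4.51, 5.41 and 3.91 CPM against 0.743, 0 and 0 CPM. Among the fits without 1 library it kept its call only without LoKo replicate 1 (adjusted p 0.0549 to 0.095 in the rest). Calls numbered 5 without LoKo replicate 2 or Cu replicate 2, and 6 without Cu replicate 1 or 3.

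Sorbitol raised 7 of 40 members and lowered 3 relative to LoKoLiquide, against 10.7 and 7.07% of all genes (member median 0.19, all genes 0.06). CopciAB_489780 had 13.1, 13.2 and 38.3 CPM in sorbitol, against 0.335, 0.221 and 0.233 CPM (log2 6.29 ± 0.73, adjusted p = 3.83e-06). CopciAB_84247 had 0.973, 1.59 and 1.16 CPM against 11.9, 23.5 and 8.37 CPM (log2 -3.62 ± 0.46, adjusted p = 1.09e-05). Neither gene overlapped between the groups. Calls numbered 6 without LoKoLiquide replicate 3 or Sor replicate 3.

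In the co-culture with Trichoderma, which the rule did not use, 15 of 41 members were higher and 4 lower than in DM_108h, against 16 and 14.5% of all genes (member median 1.13, all genes -0.12). The members took 4.15, 16.9 and 13.6% of the counts of the 3 CTGT libraries, most of it from the scaffold 16 models: CopciAB_1002762 had 18126, 83205 and 66925 CPM there. Its call was lost without CTGT replicate 3 (log2 9.57, adjusted p = 0.0548). CopciAB_1001038 had 478, 93.6 and 44.7 CPM, against 0, 0.180 and 0.142 CPM in DM_108h, and the 4 scaffold 4 genes together had 202, 95 and 78 counts in libraries of 213736, 533936 and 961041 counts. In the means over the 3 CTGT libraries, their proportions were those of sclerotia within 1.24-fold. By library, the 4 genes spanned 2.04 to 2.35% of their sclerotium means in CTGT replicate 1. They spanned 0.338 to 0.623% in replicate 2 and 0.138 to 0.215% in replicate 3. Without the 7 members of the scaffold 4 stretch and of scaffold 16 the calls were 8 higher and 4 lower of 34.

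Seen by gene, CopciAB_496344 and CopciAB_448067 were called in 13 of the 20 comparisons each, 7 times higher and 6 times lower. CopciAB_469460 was called lower 9 times and higher 3 times. At the other end, CopciAB_423857 and CopciAB_483120 were called once in each direction. The scaffold 16 models CopciAB_1002762 and CopciAB_1002767 were called higher 8 times and lower 0 times, and since they cannot be told apart these are 1 set of calls.

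**Figure D5:**
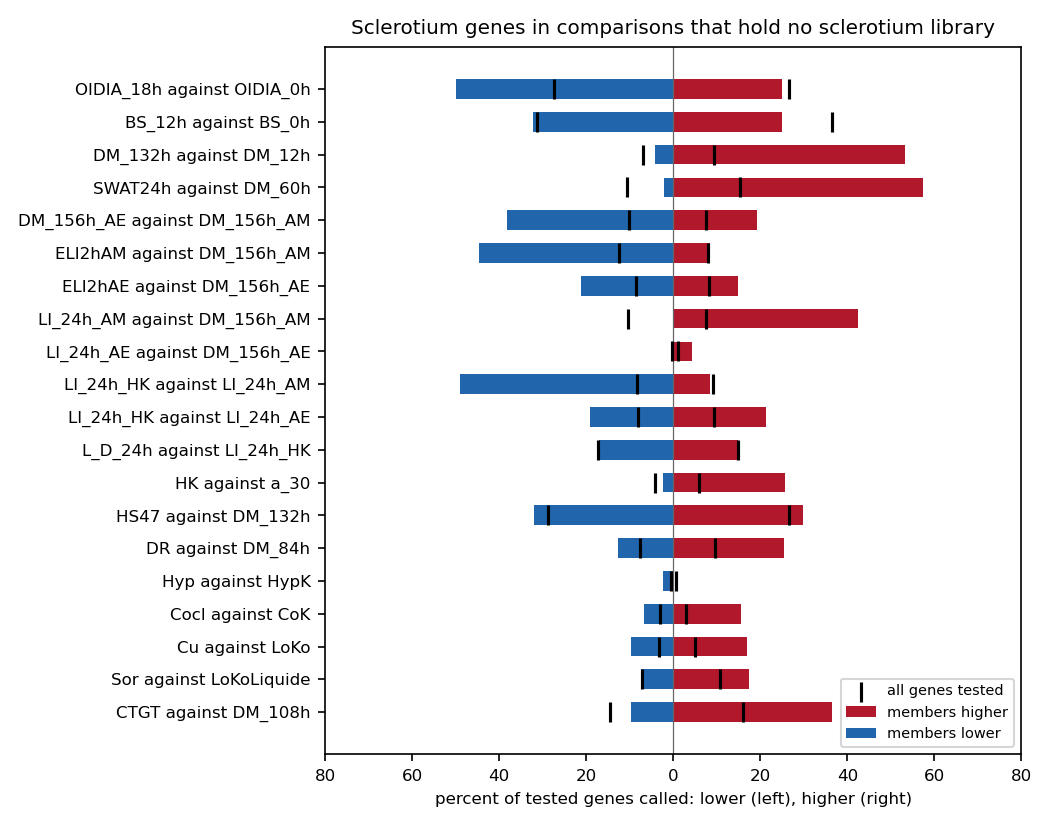
Percent of the members tested that were called higher (right) or lower (left) in each of the 20 comparisons (bars), with the same percentages over all genes tested as black ticks. The bars pass the ticks most clearly for higher members at DM_132h, SWAT24h and LI_24h_AM (53.2, 57.4 and 42.6% of members) and for lower members in ELI2hAM and in knots against attached mycelium (44.7 and 48.9%).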

How the data were processed

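Expression was measured by QuantSeq 3′ mRNA sequencing (Lexogen FWD kit, oligo-dT priming, 75 bp single-end reads) in 201 libraries, per the labels' protocols. The deposited table holds expected counts, estimated counts per gene that are partly not whole (19.9% of the nonzero values). STAR 2.6.1a and featureCounts made them, per the submitters' processing notes. The sources used here do not give the handling of multi-mapped reads, the strand setting or the featureCounts version. Positions and exon structures came from the authors' deposited annotation of scaffolds. None of the 13617 gene identifiers matched the 13657 genes of the RefSeq table, so no product name or sequence is given. The suffix .T0 of the identifiers is left out.

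CPM was computed as count over library total. For tests, counts were rounded to whole numbers and fitted with edgeR 4.0.16 in R 4.3.3 (TMM scaling, filterByExpr with a minimum count of 10, robust quasi-likelihood test on group means of related groups without a replicate block), with Benjamini-Hochberg adjustment over all genes tested. The procedure was tested on simulated data. Alternatives were DESeq2 1.42.0, RLE scaling, no filter, a replicate block, and leaving out each library (93 refits). Same-numbered libraries deviated together (every pair's correlation over 0.1) in 1 of 20 comparisons, LI_24h_AE against DM_156h_AE (0.22, 0.11 and 0.26). The fits behind the reported values hold no block, there and in the tests of the difference in light response, and the blocked count is given beside that result.

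Members and comparisons were chosen with earlier results of these data known. Named genes are the 12 largest ratios, the 8 highest sclerotium means (with their calls), those next to the thresholds and, per comparison and direction, up to 3 called members with the largest change and no overlap between groups, and runs of neighbouring members. Members of large change whose call rested on 1 library were mostly passed over in the text for those that kept it. Library depth limits low values: 3 counts correspond to 0.473 to 0.561 CPM in the sclerotium libraries, a limit that covers counting error only. The lists of genes by product could not be applied.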

Additional observations from a re-analysis of the deposited data

Results flagged for a closer look

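The response to light (light minus dark, log2) differed between attached and aerial mycelium, by an interaction test in edgeR over 11812 genes, for 4 members at 24 h and 9 members at 2 h (8.24 and 5.1% of all genes). At 24 h the attached response exceeded the aerial one by 3.50 for CopciAB_423857, 2.68 for CopciAB_1002232, 1.62 for CopciAB_128637 and 1.26 for CopciAB_355613. After 2 h of light it was lower in attached mycelium by a difference of -6.02 for CopciAB_1001035, -5.35 for CopciAB_372401, -4.44 for CopciAB_543653, -3.94 for CopciAB_448067, -3.35 for CopciAB_128637, -2.54 for CopciAB_500697, -2.04 for CopciAB_469460 and -2.04 for CopciAB_368953. CopciAB_501966 went the other way at 2 h, with a difference of 2.57. The levels of CopciAB_1001035 were low: in attached mycelium it averaged 1.45 CPM in light and 9.92 CPM in the dark. In aerial mycelium it averaged 1.43 and 0.145 CPM. Its attached dark libraries had 20.2, 9.52 and 0 CPM. Whether it was transcribed at the levels seen in light was not tested.

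In 15 groups that enter none of the comparisons, members were set against the control that the group's title names. A pair of a member and a group was listed if it averaged at least 20 CPM and no library overlapped with the control. Its mean also had to be at least 15-fold above that of the control, with 0.5 CPM added to each. This gave 13 pairs, which were not tested, and the share over all genes was not computed. CopciAB_496344 averaged 122 CPM with calcium (LoKo 0.165 CPM), and 111 and 63.6 CPM after 4 and 8 h on water agar (DM_60h 3.30 CPM). At 8 h the fold was 12.8 without SWAT8h replicate 1 and 14.3 without DM_60h replicate 2. With calcium, CopciAB_501966 averaged 70.8 CPM and CopciAB_393477 52.9 CPM (LoKo 2.34 and 0.303 CPM). The fold of CopciAB_393477 was 66.5, and 102 without LoKo replicate 1. CopciAB_501966 averaged 40.9 CPM in hydrogen peroxide (LoKoLiquide 1.72 CPM), with a mean of 25.9 CPM and a fold of 11.9 without H2O2 replicate 3. Against DM_132h, CopciAB_489780 averaged 30.1 CPM at -20 °C (0.706 CPM), and CopciAB_1001039 averaged 23.5 CPM at -20 °C and 25.7 CPM in CO2 (1.02 CPM). The CO2 libraries of CopciAB_1001039 had 59.1, 6.51 and 11.4 CPM, and without CO2 replicate 1 its mean was 8.93 CPM and its fold 6.20. Its folds, 17.2 in CO2 and 15.8 at -20 °C, fell to between 12.1 and 13.7 without DM_132h replicate 1 or 2, and were 39.0 and 35.7 without DM_132h replicate 3. At -20 °C the fold was 13.7 without min20 replicate 2. The scaffold 16 models CopciAB_1002762 and CopciAB_1002767 averaged 2116 and 2141 CPM in CO2 (DM_132h 90.2 and 90.9 CPM), and 2543 and 2569 CPM in cold (DM_84h 126 and 127 CPM). CopciAB_1002762 had 4874, 1753 and 1001 CPM in the cold libraries, and without Cold replicate 1, which held 1673596 counts, the means of the pair were 1377 and 1387 CPM and both folds 10.9. Their folds in CO2 were 23.3 and 23.4, and 40.6 and 40.9 without DM_132h replicate 1.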

How the results depend on the processing

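The selection gave 28 members at 3 times every other group and 73 with CPM on TMM library sizes, which held 45 of the 47. It gave 46 to 49 members without 1 sclerotium library, sharing 41 to 43. Of 106 counts recomputed under other settings, 100 stayed within 1.5 times the reported one. The exceptions beside the selection were hypoxia with DESeq2 (2 members), LI_24h_AE against DM_156h_AE fitted alone with the replicate block (5) or without it (4), and CTGT without the 4 genes of the scaffold 4 stretch and the 3 scaffold 16 models (12). These fits of 2 groups and the count without these 7 members were chosen after the data were seen, and the cause was not tested. In all other comparisons the replicate block kept the count within 1.5 times, for example 22 for oidia against 24 without it and 9 for copper against 11. Leaving out 1 library gave ranges of 1 to 2 (LI_24h_AE), 1 to 2 (hypoxia), 5 to 12 (cobalt), 5 to 11 (copper) and 6 to 10 (sorbitol) members called. Of 132 named pairs of a gene and a comparison, 2 lost their call with DESeq2, 6 with the block, 1 without the filter and 0 with RLE scaling, and none reversed; refits without 1 library kept 688 calls and lost 98. Depth limits the CTGT libraries most, and calls below 5 CPM rest on few counts.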
